A study of Mus musculus with 6 samples.

Results

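Mural cells are the pericytes and smooth muscle cells that wrap the endothelium of blood vessels, and 10 genes used as their markers were measured here in the RNA of monocytes enriched from the marrow of the mandible and of the femur. Several of the 10 are also made by other cells, which is given with each gene. The genes were chosen by name, with earlier results of these data known. Acta2, Tagln, Myh11, Cnn1, Des and Myl9 encode parts of the contractile apparatus. Rgs5, Cspg4, Mcam and Notch3 are used to recognise pericytes and vascular smooth muscle. All 10 were found among the 57010 genes of the count table, 1 row each, and all 10 passed the filter on low counts, which kept 18114 genes. The mice were of strain C57BL/6 per the labels (C57BL/6J in the study's methods) and 1 year old at both sites, animals of both sexes were used, and the labels name no treatment or mutation in either group. The marrow was flushed, and cells held by an antibody cocktail and magnetic beads were removed, so that the flow through was kept as monocytes. There were 3 femur libraries (S13, S15 and S18) and 3 mandible libraries (S16, S19 and S23). The labels give neither the animal nor the sex of a library, so p-values measure the spread between these libraries only.

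Smooth muscle shortens when actin and myosin filaments slide after a kinase phosphorylates the myosin regulatory light chain, and calponin and transgelin sit on the actin filaments and tune that cycle. Pericytes share part of this machinery and lie on capillaries and sinusoids, where Notch signals from the endothelium keep them differentiated. Many contractile genes are switched on by serum response factor with its cofactor myocardin, which bind a short DNA element called the CArG box.

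The libraries held 15718782 to 25371474 counts on genes, and levels are given as CPM, the counts per 1e+06 counts of the library, after TMM scaling (trimmed mean of M values). A gene without a count could still have been present at up to 3 counts, which is 0.133 to 0.172 CPM depending on the library and covers counting error only. The summed level of 14 monocyte markers was 8760 to 15482 CPM in femur and 7342 to 13056 CPM in mandible libraries, and none of these markers was without a count in any library. Femur library S15 stood apart in its low counts: 40494 genes had a count there, against 17481 to 23513 in the other libraries, and 13454 genes were counted in S15 alone, with 0.465% of its counts. Mandible library S23 was the only one with abundant Xist, an RNA made from the inactive X, at 1441 CPM against at most 0.553 CPM elsewhere.

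To determine whether mural and smooth muscle genes differed between the skeletal sites, each gene was compared by the quasi-likelihood test of edgeR, its p-value was adjusted by Benjamini-Hochberg over all 18114 genes, and a gene was called when the adjusted p was under 0.05 and the groups differed at least 2-fold. Of the 10 genes, 4 were higher in mandibular-derived monocytes, namely Des, Tagln, Myh11 and Acta2, where 3.88% of all tested genes were called higher and 5.18% were called in either direction. At an unadjusted p under 0.05, 6 of the 10 were higher, against 9.18% of all tested genes. No gene of the 10 was lower in the mandible, against 1.3% of all tested genes, and DESeq2 and limma-voom called none lower either. An unadjusted p under 0.05 in that direction was found for 0 of the 10, against 7.25% of all tested genes. All 4 called genes were contractile genes. Without mandible S19 only 2 of the 10 were called higher, and limma-voom called 1, Des. The median log2 fold change over the 10 genes was 3.0, against -0.038 over all tested genes, with 8 genes above 0 and 2 below. No p-value is given for the list, because the 10 genes were chosen with earlier results of these data known. For Des, Tagln, Cspg4 and Rgs5, most femur libraries were under the filter's count of 10. These genes passed the filter through the mandible libraries, so their direction was partly set by it. In 5 genes, the 4 called ones and Cspg4, the mandible libraries lay all above the femur libraries, as in 12.7% of all tested genes. In bulk RNA of this kind, fewer cells of a type and less RNA per cell cannot be told apart.

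**Figure D1:**
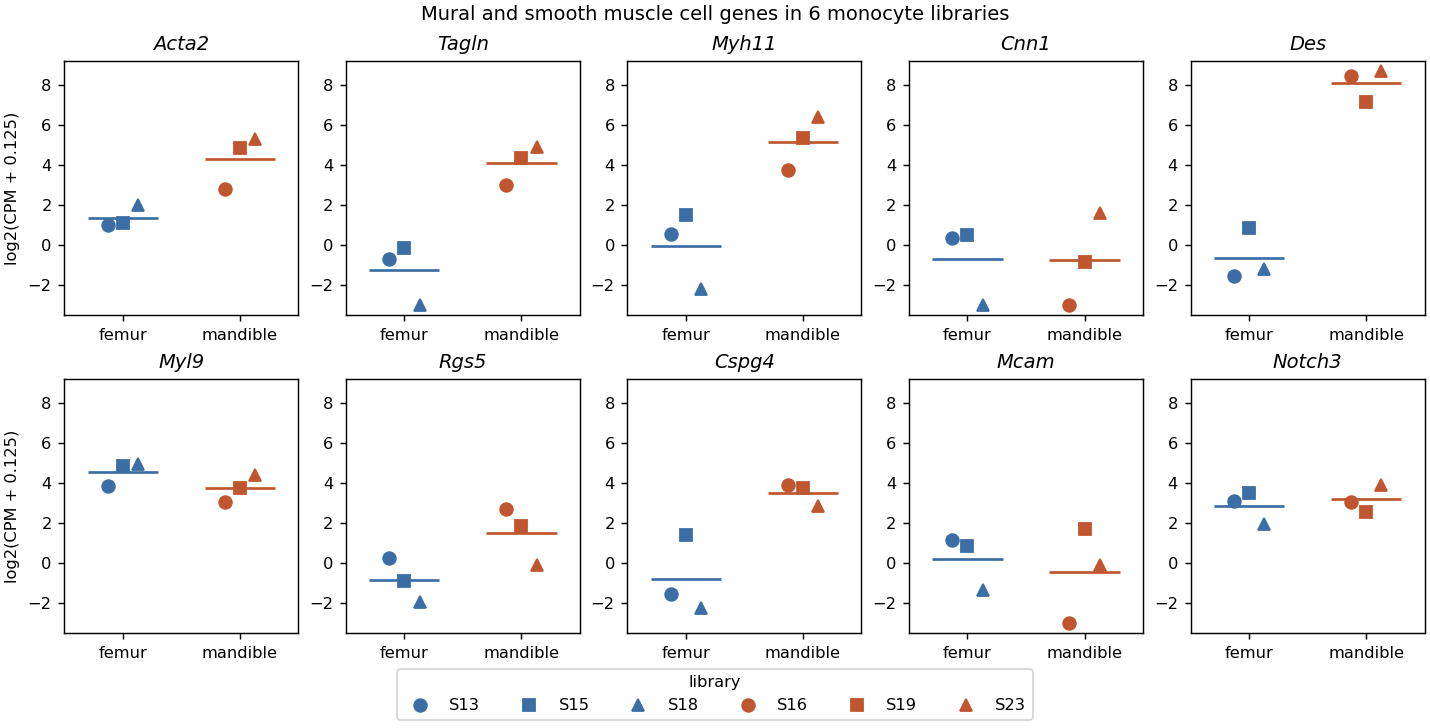
Expression of each gene in the 6 libraries, on the vertical axis as the log2 of CPM plus the prior count of edgeR, with femur libraries in blue, mandible libraries in orange and a horizontal line at the mean of the 3 log values. The groups are separate for Acta2, Tagln, Myh11, Des and Cspg4 and overlap for the other 5 genes.

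Acta2 encodes the α-actin of smooth muscle, which is also made by myofibroblasts, and lies on chromosome 19 from 34241090 to 34255590 of GRCm38 on the minus strand. It was measured at 1.88, 2.03 and 3.89 CPM in femur libraries S13, S15 and S18 and at 6.86, 29.2 and 38.7 CPM in mandible libraries S16, S19 and S23. The groups did not overlap, but S16 was much closer to the femur than the other mandible libraries. The means were 2.60 ± 1.12 CPM in femur and 24.9 ± 16.3 CPM in mandible libraries (SD, n = 3), 9.59-fold apart, which edgeR fitted as 3.25 ± 0.63 on the log2 scale (estimate ± SE, adjusted p = 0.012). The call was lost when femur S13, mandible S19 or mandible S23 was left out (adjusted p 0.059, 0.076 and 0.065, edgeR) and under limma-voom (adjusted p = 0.085).

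Tagln encodes transgelin, an actin-bundling protein of smooth muscle and of activated fibroblasts, on chromosome 9 from 45929619 to 45936058. It had 9, 17 and 0 counts in femur libraries S13, S15 and S18, or 0.497, 0.783 and 0 CPM, and 8.01, 20.6 and 29.5 CPM in S16, S19 and S23. Every mandible library was at least 8.01 CPM and no femur library reached 1 CPM. The means were 0.427 ± 0.396 and 19.3 ± 10.8 CPM (SD, n = 3), which edgeR fitted as 5.49 ± 0.98 on the log2 scale (estimate ± SE, adjusted p = 0.0071). Without mandible S19 the adjusted p was 0.054 (edgeR), and under limma-voom it was 0.082. On the other strand Tagln is overlapped by an antisense gene, Gm48529, with 30 to 102 counts in each library, and by the protein-coding gene Pcsk7, with 717 to 1493 counts. Of the 1983 words of 50 bases in the transcripts of Tagln, 1157 also occur in other genes, 1098 of them in Gm48529. Since the counting is not stated to use strand, reads of the overlap cannot be assigned to one of these genes.

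Myh11 encodes the myosin heavy chain of smooth muscle, generally taken as the marker most restricted to that cell type, on chromosome 16 from 14194535 to 14291372. Its expression was 1.33, 2.67 and 0.0884 CPM in S13, S15 and S18 and 13.3, 40.9 and 84.4 CPM in S16, S19 and S23. All mandible libraries were above the femur, and S16 was far below S23. With means of 1.36 ± 1.29 and 46.2 ± 35.9 CPM (SD, n = 3), edgeR estimated the log2 difference at 5.08 ± 0.93 (SE, adjusted p = 0.0082). It stayed called without each single library (adjusted p 0.0045 to 0.047, edgeR) but not under limma-voom (adjusted p = 0.079). Of its 7644 words of 50 bases, 26 also occur in Myh9, the non-muscle myosin heavy chain.

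Des encodes desmin, the intermediate filament protein of smooth, cardiac and skeletal muscle, on chromosome 1 from 75360329 to 75368579. It had 4, 36 and 7 counts in the femur libraries, or 0.221, 1.66 and 0.309 CPM, and reached 348, 142 and 417 CPM in S16, S19 and S23. This was the largest difference of the 10 genes, with means of 0.730 ± 0.806 and 303 ± 143 CPM (SD, n = 3), which edgeR fitted as 8.66 ± 0.77 on the log2 scale (estimate ± SE, adjusted p = 0.00010). Des was called without each single library and under limma-voom (adjusted p = 0.00265). In the mandible, Des alone took 84.2%, 52.2% and 67.6% of the counts on the 10 genes in S16, S19 and S23 (95% Wilson intervals 83.4 to 85.0%, 50.9 to 53.5% and 66.7 to 68.5%). In the femur libraries its share was 0.702 to 3.14%, and Myl9 held the largest share there, from 46.0% in S13 (95% Wilson interval 41.9 to 50.1%) to 78.2% in S18 (75.4 to 80.8%). The Wilson intervals cover counting error within a library only, not the spread between libraries. Of the words of 50 bases in Des, 173 of 3752 also occur in the overlapping gene Gm15179, which had at most 24 counts in a library.

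The other contractile genes, Cnn1 and Myl9, were not called. Cnn1 encodes calponin 1, an actin-binding inhibitor of the smooth muscle myosin ATPase, on chromosome 9 from 22099216 to 22109630. It had 21, 28 and 0 counts in the femur libraries and 0, 9 and 51 counts in S16, S19 and S23. The groups overlapped, and the log2 fold change of 0.44 had a standard error of 1.95 (adjusted p = 0.96, edgeR). A difference was not detectable with this spread between the libraries. Its sign depended on a single library in each group, with -1.95 without mandible S23 and -0.14 without femur S18. Myl9, on chromosome 2 from 156775420 to 156781658, encodes the myosin regulatory light chain that is phosphorylated in smooth muscle, and megakaryocytes and platelets make it as well. It was 14.5, 28.7 and 30.6 CPM in S13, S15 and S18 and 8.16, 13.4 and 20.9 CPM in S16, S19 and S23. These values overlapped, with a log2 fold change of -0.80 (SE 0.43, adjusted p = 0.42, edgeR; exact two-sided permutation test, p = 0.2).

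Among the genes of pericytes and the vessel surface, edgeR called none, although Cspg4 and Rgs5 had an unadjusted p under 0.05 and DESeq2 called Cspg4 (adjusted p = 0.0033), while limma-voom called none. Cspg4 encodes the NG2 proteoglycan, a pericyte surface protein also found on glial and mesenchymal progenitors, on chromosome 9 from 56865033 to 56899870. It had 4, 55 and 2 counts in femur libraries S13, S15 and S18 and 292, 279 and 124 counts in S16, S19 and S23. Most femur counts thus came from S15, the library with many low counts, and all mandible libraries were above it. In CPM the means were 0.948 ± 1.38 and 11.6 ± 4.01 (SD, n = 3), with an estimate of 3.61 on the log2 scale (SE 1.03, adjusted p = 0.078, edgeR). Without S15 it was 6.17 and Cspg4 was called (adjusted p = 0.0014, edgeR).

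Rgs5 encodes a regulator of G-protein signaling that is abundant in pericytes, on chromosome 1 from 169655501 to 169695813. Its values were 1.05, 0.415 and 0.133 CPM in S13, S15 and S18 and 6.35, 3.51 and 0.801 CPM in S16, S19 and S23. Only S23 fell within the femur range, and the log2 fold change was 2.74 (SE 1.23, adjusted p = 0.29, edgeR). Mcam encodes CD146, an adhesion molecule of pericytes, smooth muscle and endothelium, on chromosome 9 from 44134469 to 44142727. It had 38, 36 and 6 counts in S13, S15 and S18 and 0, 66 and 14 counts in S16, S19 and S23. Both groups covered the same low range, with a log2 fold change of -0.029 (SE 1.62, adjusted p = 0.996, edgeR), whose sign turned without femur S13 (0.47), femur S15 (0.11), mandible S16 (0.57) or mandible S23 (0.18) and without normalization factors (0.058). Notch3 encodes the Notch receptor typical of mural cells, on chromosome 17 from 32120820 to 32166852. It was 8.56, 11.1 and 3.76 CPM in the femur libraries and 8.11, 5.84 and 15.04 CPM in S16, S19 and S23. The groups overlapped, with means of 7.82 ± 3.75 and 9.66 ± 4.79 CPM (SD, n = 3) and a log2 fold change of 0.30 (SE 0.56, adjusted p = 0.88, edgeR). The sign of Notch3 turned without femur S18 (-0.026), without mandible S23 (-0.22) and after a correction for gene length (-0.15).

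**Figure D2:**
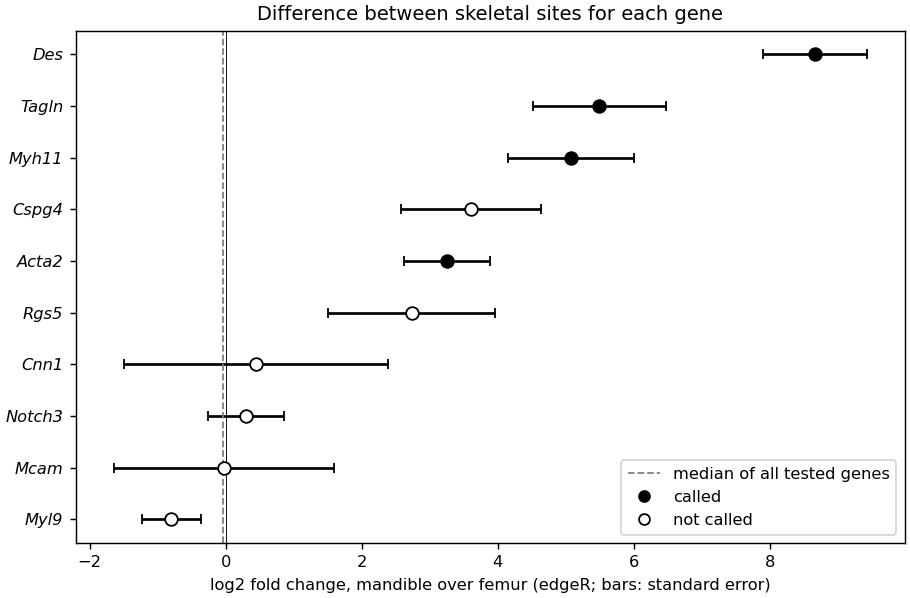
Log2 fold change of mandible over femur on the horizontal axis for each gene, from edgeR, with bars for the standard error, filled points for called genes and a dashed line at the median of all tested genes. Des, Tagln, Myh11 and Acta2 are called, and the bars of Cnn1, Mcam and Notch3 cross 0.

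Compared per length, as CPM per kilobase of exon, the genes ranked differently at the 2 sites. In the femur Myl9 stood first at 21.2 ± 7.59 (SD, n = 3), followed by Acta2 at 1.18 ± 0.510 and Notch3 at 0.967 ± 0.464, and the other 7 genes were between 0.0794 for Cspg4 and 0.4003 for Mcam. Myl9 was separate from Acta2 in every femur library, while each lower pair of neighbours overlapped. In the mandible Des stood first at 80.6 ± 38.1 (SD, n = 3), above Myl9 at 12.2 ± 5.53, Acta2 at 11.3 ± 7.44, Tagln at 9.73 ± 5.42 and Myh11 at 6.08 ± 4.72, and the mandible libraries of Des were separate from those of Myl9 while these last 4 overlapped. Notch3, Cspg4, Rgs5, Cnn1 and Mcam were each between 0.391 and 1.19.

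The promoter sequences of Acta2, Myl9 and Des are shown because these genes include the called α-actin and desmin genes and the most abundant contractile gene of the femur, which was not called. They run from 250 bases before to 50 bases after the start site in RefSeq (GRCm38.p6), 5′ to 3′ on the gene's own strand, at chr19:34255324-34255623 (minus strand), chr2:156775214-156775513 (plus strand) and chr1:75360042-75360341 (plus strand). Capitals mark the CArG box, and the CArG-like form in which 1 of the 6 inner bases is C or G. Both forms read the same way on both strands, and the second form includes the first.
Acta2: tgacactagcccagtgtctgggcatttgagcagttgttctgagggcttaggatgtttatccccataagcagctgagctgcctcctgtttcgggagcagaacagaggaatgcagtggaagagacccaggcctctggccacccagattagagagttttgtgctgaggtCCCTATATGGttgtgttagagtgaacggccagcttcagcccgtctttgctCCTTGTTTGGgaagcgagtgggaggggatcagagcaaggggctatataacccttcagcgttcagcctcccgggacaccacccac
Myl9: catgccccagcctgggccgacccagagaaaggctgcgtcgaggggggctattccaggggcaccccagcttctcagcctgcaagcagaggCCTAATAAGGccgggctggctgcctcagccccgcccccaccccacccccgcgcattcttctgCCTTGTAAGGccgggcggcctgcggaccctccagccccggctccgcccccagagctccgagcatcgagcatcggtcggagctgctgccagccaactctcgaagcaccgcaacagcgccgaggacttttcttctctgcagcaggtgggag
Des: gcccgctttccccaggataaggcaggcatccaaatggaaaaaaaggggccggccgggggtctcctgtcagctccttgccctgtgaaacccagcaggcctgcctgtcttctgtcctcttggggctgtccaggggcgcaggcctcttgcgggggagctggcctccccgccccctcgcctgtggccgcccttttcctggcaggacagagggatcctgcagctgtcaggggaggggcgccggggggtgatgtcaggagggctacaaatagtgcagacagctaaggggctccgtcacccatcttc
Acta2 held 2 CArG-like boxes, CCCTATATGG with its first base 84 bases before the RefSeq start site and CCTTGTTTGG at 34 bases before it. In M21 the Acta2 gene starts at 34255590, further upstream within the same window. The distances therefore hold for the RefSeq start only. Myl9 held CCTAATAAGG, a CArG box, 161 bases before the start site, and CCTTGTAAGG, a CArG-like box, at 99 bases before it. No such letters were in the windows of Des, Cnn1, Rgs5, Cspg4, Mcam and Notch3. Of all 32851 promoter windows of this length, 1.63% held a CArG box and 9.98% held either form, against 1 and 2 of the 8 windows of the genes described here. Tagln and Myh11 are not among the 8.

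Monocytes use non-muscle relatives of the contractile proteins, and a list of 21 relatives of the 10 genes was compared. It also holds Acta1, a muscle gene that is counted among the skeletal muscle markers too. Actb and Actg1 (cytoplasmic actins), Tagln2 (transgelin 2), Cnn2 (calponin 2), Myh9 (non-muscle myosin heavy chain), Myl12a and Myl12b (non-muscle light chains) and Vim (vimentin) were not called, with log2 fold changes from -0.63 for Myl12b to 0.45 for Vim (adjusted p 0.52 to 0.96, edgeR). Of the 21 relatives, 3 were higher in the mandible, namely Myh10, Cnn3 and the muscle gene Acta1, against 3.88% of all tested genes. In the other direction 1, Rgs18, was lower, against 1.3% of all tested genes. With single libraries left out, 1 to 3 were higher (1 without femur S18, mandible S19 or mandible S23). Between 0 and 1 were lower (0 without femur S13, femur S18, mandible S16, mandible S19 or mandible S23). Acta1, the actin of skeletal muscle, had a log2 fold change of 11.06 (SE 0.76, adjusted p = 1.6e-05), the non-muscle myosin gene Myh10 one of 2.17 (SE 0.55, adjusted p = 0.043), and Cnn3, the calponin of fibroblasts and other non-muscle cells, one of 2.0 (SE 0.41, adjusted p = 0.016, all edgeR). Rgs18, a regulator of G-protein signaling of megakaryocytes and myeloid cells, fell by 1.44 on the log2 scale (SE 0.36, adjusted p = 0.041, edgeR). The receptors Notch1 and Notch2, with log2 fold changes of 0.11 and 0.83, were not called (adjusted p 0.92 and 0.19, edgeR).

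Set against the relative in the same library, per length, Acta2 was 0.0346 to 0.0684% of Actb in femur and 0.114 to 1.23% in mandible libraries. Tagln was at most 0.452% of Tagln2 in femur and 3.60 to 20.9% in mandible libraries. Both smooth muscle genes therefore remained a minor part beside the relative in all libraries. Myh11 was 0.00510 to 0.202% of Myh9 in femur and 0.478 to 5.77% in mandible libraries, and Des was 0.0186 to 0.156% and 6.93 to 32.5% of Vim. Myl9 was of the same order as Myl12a at both sites, at 44.7 to 181% in femur and 45.4 to 111% in mandible libraries. Acta2 exceeded Acta1 in each femur library (154 to 879% of Acta1), but Acta1 had only 5, 20 and 7 counts in S13, S15 and S18. In the mandible Acta2 was 0.509 to 4.11% of Acta1.

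**Figure D3:**
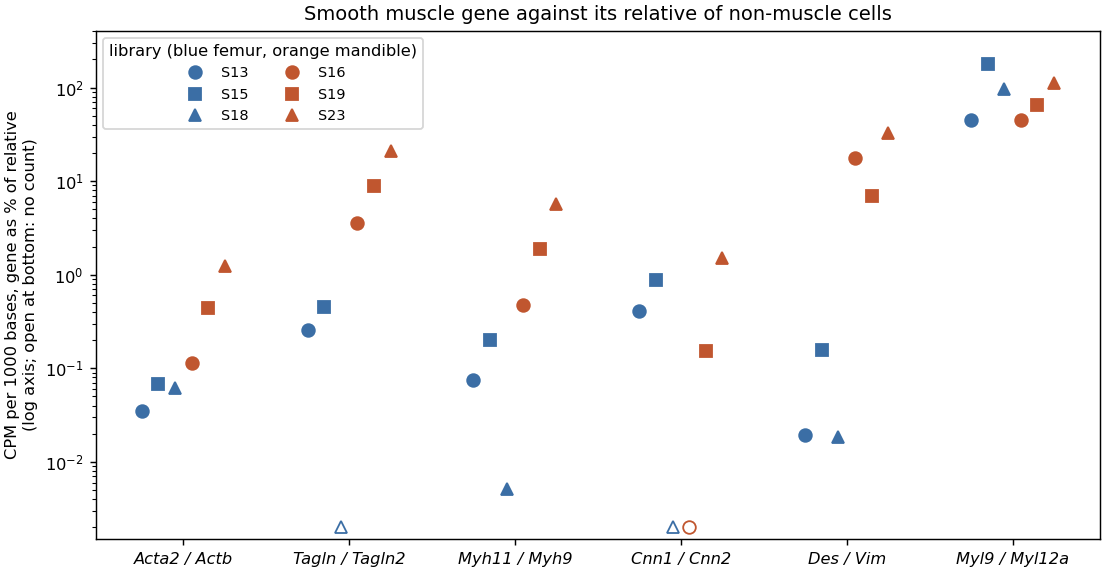
Level of a smooth muscle gene as a percentage of its non-muscle relative, both as CPM per kilobase, on a log axis for each library (blue femur, orange mandible, open symbols at the bottom for no count). The mandible libraries lie above the femur libraries for Acta2, Tagln, Myh11 and Des, and overlap them for Cnn1 and Myl9.

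The mandible libraries did not rise together in all genes. Acta2, Tagln, Myh11 and Myl9 were each highest in S23, intermediate in S19 and lowest in S16, and Myh11 in S23 was 84.4 CPM against 13.3 CPM in S16. Rgs5 and Cspg4 had the opposite order, with their highest value in S16 and their lowest in S23. Des differed from both, as it was lowest in S19. With 3 libraries these orders are descriptions of the libraries, and no test of them was made.

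**Figure D4:**
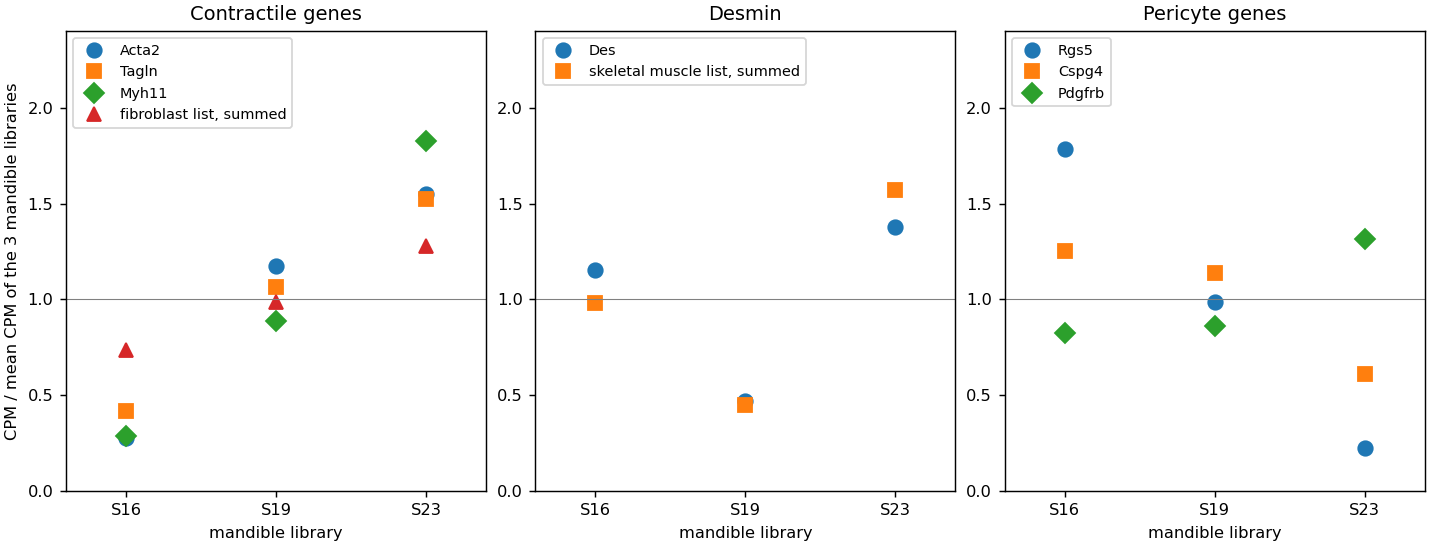
CPM of each gene or summed list in the mandible libraries S16, S19 and S23, divided by the mean of the 3 libraries, with contractile genes beside the fibroblast list, Des beside the skeletal muscle list, and pericyte genes. Acta2, Tagln and Myh11 are lowest in S16 and highest in S23, Des and the skeletal muscle list are lowest in S19, and Rgs5 and Cspg4 are lowest in S23.

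Markers of other cell types moved with the sites. Beside the counts for these lists, 3.88% of all tested genes were called higher in the mandible and 1.3% lower. All 14 tested genes of a list of 19 skeletal muscle markers were higher in the mandible. Some passed the filter on low counts through the mandible libraries, as Acta1 did with 5, 20 and 7 counts in S13, S15 and S18. The direction of such genes was partly set by the filter. For the skeletal muscle list, the summed level was 40.5, 97.7 and 28.9 CPM in S13, S15 and S18 and 4083, 1858 and 6540 CPM in S16, S19 and S23. Its most abundant genes were Acta1, Tnnt3 and Tnnc2, while the 4 regulators of muscle cells in the list, named after their values were seen, were not tested. Myod1 had 70, 6 and 0 counts in S16, S19 and S23, Pax7 had 0, 6 and 0 counts there, and Myog and Myf5 had none, and in the femur all 4 had counts in S15 only. The order of the mandible libraries was that of Des, and the part of skeletal muscle RNA in the level of Des was not tested. Of 14 fibroblast markers, all tested, 9 were higher in the mandible, led by Col3a1 with a log2 fold change of 8.49 (SE 0.56, adjusted p = 1.35e-05, edgeR), and the summed level was 190 to 260 CPM in the femur and 9061, 12128 and 15721 CPM in S16, S19 and S23. Since fibroblasts can express Acta2 and Tagln, this stands beside their values, and its part in them was not tested.

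Endothelial cells line the vessels that mural cells wrap. Of 18 markers 13 were tested, with a median log2 fold change of -0.23. None was called higher by edgeR or limma-voom and 1 by DESeq2. In that direction 1 had an unadjusted p under 0.05, Flt4, named after its values were seen. Flt4 was 0 to 3.20 CPM in femur and 9.86 to 23.6 CPM in mandible libraries (log2 fold change 2.99, SE 1.06, adjusted p = 0.16, edgeR). The mandible libraries lay all above the femur libraries in 2 of the 13 markers and all below in 1, against 12.7% and 11.5% of all tested genes. The summed level of the markers was 84.9 to 114 CPM in femur and 76.6 to 108 CPM in mandible libraries. The most abundant marker was Pecam1, which leukocytes also express. The defining gene Cdh5, named after its values were seen, had 0 to 33 counts in femur and 0 to 32 in mandible libraries, and the one gene called lower, Esam, fell from 9.25 ± 0.773 to 0.146 ± 0.128 CPM (SD, n = 3 each), a gene that platelets express too. Of the 15 megakaryocyte and platelet markers 14 were tested, 12 were lower in the mandible, and the summed level was 1347, 1113 and 1592 CPM in S13, S15 and S18 and 181 to 278 CPM in mandible libraries. Myl9, which those cells also make, was highest in S18, as was this sum, but S15 had the lowest sum of the femur libraries and nearly as much Myl9 (28.7 CPM) as S18 (30.6 CPM), while S13 had less (14.5 CPM). The part of platelet RNA in the level of Myl9 was not tested.

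Further genes of smooth muscle and pericytes were taken from 3 lists with 59 genes in all, of which 49 were tested. Together 37 had a log2 fold change above 0, against 47.8% of all tested genes. Of the 49, 8 were called higher in the mandible, against 3.88% of all tested genes. None was called lower (edgeR; 1 pericyte gene under DESeq2), against 1.3% of all tested genes. An unadjusted p under 0.05 was found for 15 in the higher direction and for 3 in the lower (edgeR), against 9.18% and 7.25% of all tested genes. Some genes of these lists passed the filter on low counts through the mandible libraries. Called examples were Nexn, with 0, 25 and 0 counts in S13, S15 and S18, and Foxf2, with 0, 1 and 8. The direction of such genes was partly set by the filter. Among the contractile genes, 26 of 30 were tested, with a median log2 fold change of 0.70. In 10 of the 26 the mandible libraries lay all above the femur libraries, and in 2 all below, against 12.7% and 11.5% of all tested genes. The 5 called members were Nexn (nexilin), Tpm1 and Tpm2 (tropomyosins), Synpo2 (a Z-disc protein) and Synm (synemin, a partner of desmin). Tpm2 was 32.1 ± 4.23 CPM at the femur against 882 ± 462 CPM at the mandible and Tpm1 98.3 ± 8.20 against 599 ± 320 CPM (SD, n = 3 each), or 4.78 ± 0.48 and 2.61 ± 0.39 on the log2 scale (SE; edgeR, adjusted p 0.00024 and 0.0027). All 5 are also genes of striated muscle, and like Des each was lowest in S19 among the mandible libraries. The most abundant gene of this list, Flna (filamin A), was not called (log2 fold change 0.17, adjusted p = 0.89, edgeR).

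Some other genes of smooth muscle had few counts, and Actg2, Lmod1, Kcnmb1, Cav1, Pdlim3 and Myocd are named after their values were seen. Actg2, the γ-actin of smooth muscle, had 0, 12 and 9 counts in S13, S15 and S18 and 0, 0 and 8 counts in S16, S19 and S23, and was not tested. Lmod1, which encodes the leiomodin of smooth muscle, had 6, 47 and 0 counts in S13, S15 and S18 and 78, 19 and 27 counts in S16, S19 and S23, and was not called (log2 fold change 1.34, SE 1.57, adjusted p = 0.78, edgeR). Kcnmb1, a potassium channel subunit of smooth muscle, had counts only in S15 and S23. Cav1 had 5, 0 and 1 counts in S13, S15 and S18 and 19, 42 and 56 counts in S16, S19 and S23. Pdlim3 had 0, 27 and 0 counts in the femur libraries and 97, 66 and 164 in the mandible libraries. Both passed the filter through the mandible libraries, and neither was called (log2 fold changes 4.22 and 3.77, adjusted p 0.24 and 0.23, edgeR). Myocd, which encodes myocardin, had 37 counts in S15 and none in the other 5 libraries, including all mandible libraries, which allows up to 0.142 to 0.172 CPM. Srf and its broadly expressed cofactors Mrtfa and Mrtfb had log2 fold changes of 0.22, 0.25 and 1.20, and none of them was called (adjusted p 0.79, 0.72 and 0.087, edgeR), although Mrtfb had an unadjusted p under 0.05 and DESeq2 called 1 of the 3.

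Of 25 further pericyte genes, 20 were tested, with a median log2 fold change of 1.20, 14 above 0 and 6 below. Of the 20, 3 were called higher in the mandible, against 3.88% of all tested genes. Pdgfrb, the receptor by which endothelial PDGF-B recruits pericytes and which fibroblasts also carry, was 15.5 ± 3.44 CPM at the femur against 54.9 ± 15.03 CPM at the mandible (SD, n = 3 each), higher by 1.83 on the log2 scale (SE 0.31, adjusted p = 0.0058, edgeR). Abcc9, a subunit of the pericyte potassium channel, and Foxf2, a transcription factor of pericytes and facial mesenchyme, differed by 3.25 ± 0.66 and 6.69 ± 1.05 on the log2 scale (SE; edgeR, adjusted p 0.0147 and 0.0036). All 3 were lowest in S16, where Rgs5 and Cspg4 were highest. Angpt1 and Lepr, which marrow stromal cells express, were next in abundance and were not called (log2 fold changes 0.12 and -0.44). Higd1b, Gja4 and Tbx18, named after their values were seen, had at most 2 counts in each mandible library. Gucy1a1 and Gucy1b1, also named after their values were seen, had log2 fold changes of -1.28 and -1.68. Their mandible libraries lay all below the femur libraries, as in 11.5% of all tested genes. Neither gene was called (adjusted p 0.24 and 0.064, edgeR). In the other direction, 8 of the 20 tested genes had all mandible libraries above the femur libraries, against 12.7% of all tested genes. Some of these 8, such as Foxf2, had passed the filter on low counts through the mandible libraries. Only Gucy1a1 and Gucy1b1 lay all below.

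**Figure D5:**
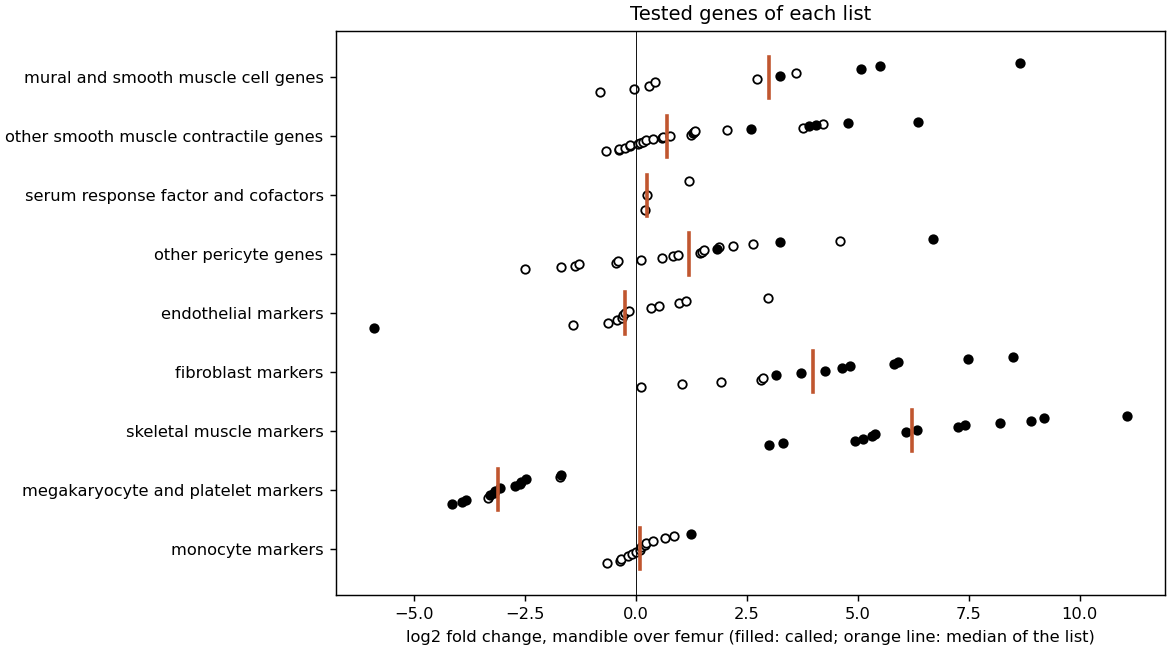
Log2 fold change of mandible over femur on the horizontal axis for the tested genes of each list, filled where called, with an orange line at the median of the list. The 10 mural and smooth muscle genes run from -0.80 for Myl9 to 8.66 for Des, the skeletal muscle and fibroblast lists lie above 0, and the megakaryocyte and platelet list lies below 0.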

How the data were processed

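The RNA of enriched monocytes was sequenced as paired-end reads in 6 libraries. Per the labels and the study's methods, the authors trimmed the reads and aligned them by HISAT2 2.1.0 to GRCm38, and featureCounts gave the deposited values, which are raw gene counts (whole numbers, not normalized). Strand and multi-mapping settings are not given in the sources used here. Of 52029 genes shared with GENCODE M21 (GRCm38), only 2979 lay within the M21 interval, so the deposited coordinates do not match M21. Which annotation was counted is not known. The gene positions and overlaps given here come from M21, matched by Ensembl identifier, and may differ from those used in the counting. In R 4.3.3, edgeR 4.0.16 was run on filterByExpr genes (count of 10 or more, total of 15 or more) with TMM factors, the quasi-likelihood test, a prior count of 0.125 (also used in the plot of levels) and no covariates. An SE is the log2 fold change over the root of F. With 3 against 3 libraries the exact permutation test has a smallest p of 0.1. Alternatives were DESeq2 1.42.0, limma-voom (limma 3.58.1), other scalings, filters and thresholds, a length correction (loess, span 0.4) and leaving out each library. The tests were tried on simulated data. The 10 genes and every list (muscle, pericyte, relatives, endothelial, fibroblast, osteoblast, skeletal muscle, Schwann, megakaryocyte and monocyte) were chosen with earlier results of these data known. Besides the 10 genes and their relatives, each list contributed by name its 3 most abundant genes at most and, of its called genes, at most the 5 that changed most, and other names are marked in the text.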

Additional observations from a re-analysis of the deposited data

How the results depend on the processing

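The number of the 10 genes called higher in the mandible was 4 in the reported analysis, 1 under limma-voom (Des), 5 under DESeq2 and without the filter on low counts (Cspg4 added) and 3 at an adjusted p under 0.01 (Acta2 lost), and it ran from 2 (without mandible S19) to 5 (without femur S15) when single libraries were left out. None was called lower under any of these settings, and Des was called under all of them. Over all genes, 938 were called, against 434 without mandible S19, 1565 without femur S15, 1548 under DESeq2, 1590 without the filter and 445 at an adjusted p under 0.01. The median over all genes was 0.061 without normalization factors, -0.18 after the length correction and -1.09 without the filter. The cause of these changes was not tested. No paired analysis was possible because the groups share no library number in the labels.

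Signs turned only in genes that were not called. Mcam was 0.058 without normalization factors and ran from -1.77 to 0.57 with single libraries left out, Notch3 was -0.15 after the length correction and ran from -0.22 to 0.61, and Cnn1 ran from -1.95 to 1.03.

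Some counts of the other lists moved. Under DESeq2, 1 gene of serum response factor and its cofactors, 1 endothelial and 3 Schwann cell genes were higher and 1 pericyte gene was lower. Under limma-voom, 1 pericyte and 0 Schwann cell genes were higher and 0 endothelial genes were lower. Without the filter, 8 other contractile genes and 1 endothelial gene were higher and 1 pericyte gene was lower. At an adjusted p under 0.01, 1 relative, 0 Schwann cell and 0 monocyte genes were higher, and 0 relatives were lower. With the size factors of DESeq2 in edgeR (RLE), without normalization factors and after the length correction, 0 relatives were lower. Without normalization factors, with a mean CPM of at least 1 and after the length correction, 0 monocyte genes were higher. With single libraries left out, genes called higher ran from 0 to 1 for serum response factor and cofactors, Schwann cell and monocyte markers, from 1 to 3 for relatives and from 5 to 9 for osteoblast markers, and genes called lower from 0 to 1 for pericyte genes and relatives.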

Other observations

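Other marker lists were compared in the same way, beside the 3.88% of all tested genes called higher in the mandible and the 1.3% called lower. Of the 11 osteoblast markers, all tested, 8 were higher in the mandible, and their summed level was 106 to 142 CPM in femur and 552 to 881 CPM in mandible libraries. Spp1, which encodes osteopontin, was the most abundant of them and was 45.6 ± 14.2 CPM at the femur against 244 ± 83.2 CPM at the mandible (SD, n = 3 each; edgeR, adjusted p = 0.0024). The Schwann cell list had 12 genes, of which 8 were tested and 1, the myelin protein gene Pmp22, was higher (log2 fold change 3.05, edgeR, adjusted p = 0.013). Of the 14 monocyte markers 1 was higher, the nuclear receptor gene Nr4a1, at 58.7 ± 22.96 CPM in femur and 139 ± 4.66 CPM in mandible libraries (SD, n = 3; edgeR, adjusted p = 0.047). The call was not stable, as no monocyte marker was called higher in 9 of the other settings. Among these were the fits without femur S13, femur S18, mandible S16, mandible S19 or mandible S23.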
